A study of Mus musculus with 4 samples.

Results

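The 8 genes described here, of 8251 genes named on the array, encode heat shock proteins and Hsp70 partners: the inducible Hsp70 genes Hspa1a and Hspa1b, the constitutive Hsp70 gene Hspa8, the J-domain partner Dnajb1, the Hsp110 genes Hsph1 and Hspa4, the Hsp90 gene Hsp90aa1 and the small heat shock protein gene Hspb1. Members were taken by gene symbol from the annotation of the MG_U74Av2 oligonucleotide array, which assigned them 13 of its 12488 probe sets. A probe set is a group of short probes that together give 1 intensity for a transcript. Hspa4 had 5 probe sets, Hsp90aa1 had 2, and each other member had 1.

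RNA was taken from whole lungs, pooled across animals of the inbred mouse strain C57BL/6J. The 4 pools, each read on 1 array, were unexposed lungs and lungs collected 6, 18 and 90 h after inhaled HDI aerosol (hexamethylene diisocyanate, a reactive paint and coating chemical that irritates airways) at 10 mg/m3. The comparisons ask which lung transcripts were higher or lower than without exposure at early and late times after inhalation. How many mice made up a pool, how long they inhaled the aerosol and whether controls had a sham exposure is not given in the sources used here. With 1 array per pool there was no replicate spread, no test could be made, and every fold below describes these 4 arrays only. All comparisons with unexposed lungs share 1 array.

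Hsp70 proteins bind exposed hydrophobic stretches of unfolded proteins and release them in a cycle driven by ATP. J-domain proteins such as Dnajb1 bring clients to Hsp70 and speed up its ATP hydrolysis, and Hsp110 proteins speed up the release of ADP, which frees the client. Hsp90 takes over partly folded clients such as steroid receptors and kinases, and small heat shock proteins hold unfolded clients without using ATP. When unfolded protein accumulates, the transcription factor Hsf1 binds heat shock elements, which are inverted repeats of GAA units, and raises transcription of the inducible members.

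Hspa1a and Hspa1b are adjacent genes of chromosome 17 that encode nearly the same protein, so signal of their transcripts could be shared between their probe sets. Their start regions are shown because both genes had the same order of pools. Hsp90aa1 had that order too, but no start window was found for it. The sequences are from RefSeq (GRCm38.p6), are the 250 bases before the annotated start on the minus strand, and run 5′ to 3′. The first 2 lie at chr17:34972157-34972406 for Hspa1a and chr17:34959239-34959488 for Hspa1b. Capitals mark each match to the searched heat shock element cores.
Hspa1a: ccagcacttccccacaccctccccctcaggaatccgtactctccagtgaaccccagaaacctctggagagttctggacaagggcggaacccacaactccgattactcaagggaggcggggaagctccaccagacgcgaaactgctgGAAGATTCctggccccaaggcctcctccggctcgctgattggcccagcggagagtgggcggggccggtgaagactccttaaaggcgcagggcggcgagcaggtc
Hspa1b: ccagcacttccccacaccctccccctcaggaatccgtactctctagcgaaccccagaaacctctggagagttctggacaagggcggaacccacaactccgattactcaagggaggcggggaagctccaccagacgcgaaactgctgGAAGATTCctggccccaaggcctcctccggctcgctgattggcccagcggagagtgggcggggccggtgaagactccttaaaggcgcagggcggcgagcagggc
Hsph1: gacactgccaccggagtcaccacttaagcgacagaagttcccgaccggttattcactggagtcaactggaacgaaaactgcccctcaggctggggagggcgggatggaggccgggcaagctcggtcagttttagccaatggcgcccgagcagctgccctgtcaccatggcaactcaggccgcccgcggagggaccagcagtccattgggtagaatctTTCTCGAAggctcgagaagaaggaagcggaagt

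The upstream stretch of Hspa1a and that of Hspa1b were identical at 247 of 250 bases (98.8%). The differences, with the Hspa1a base first and positions counted from the first base shown, were C44T, T47C and T249G. The Hsph1 stretch lies at chr5:149636337-149636586 on the minus strand and is shown because Hsph1 was, with Hspa1a and Hspa1b, at least 2-fold higher at 18 h.

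Cores searched were GAANNTTC and TTCNNGAA, pairs of units facing each other in either way, each of which reads the same on both strands. RefSeq start windows (250 bases before to 50 after a start) were found for 6 of the 8 members, in 8 windows. Hspa1a and Hspa1b each held GAAGATTC starting at base -104, where -1 is the base before the start. Hsph1, in the window shown, held TTCTCGAA at -33, and after its start the run TTCTGGAAAGTTC, in which both cores overlap as 3 units in a row. Hspb1 held GAAGTTTC at -117 and GAACCTTC at -97. Windows of Hspa4 and Dnajb1 held no match to these letters. Of all 32851 windows, 15.1% held at least 1 of the cores and 0.603% a run of 3 units. A match is a description of letters and no binding was measured here.

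Values below are scaled intensities in array units. Each array was multiplied by a factor of 0.970 to 1.07 so that the 4 arrays had the same trimmed mean. Intensities under 77.7 units, the 40th percentile of all values, were treated as not distinguishable from background and set to that floor before log2 was taken. Where only 1 of the 2 compared values exceeded the floor, the fold is a bound, marked by "at least", and where neither did, no fold is given. A gene with several probe sets is represented by its brightest, and for the 8 genes every other probe set is given too. Of the 13 member probe sets, 8 were above the floor on all 4 arrays, 2 on some of them and 3 on none.

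**Figure D1:**
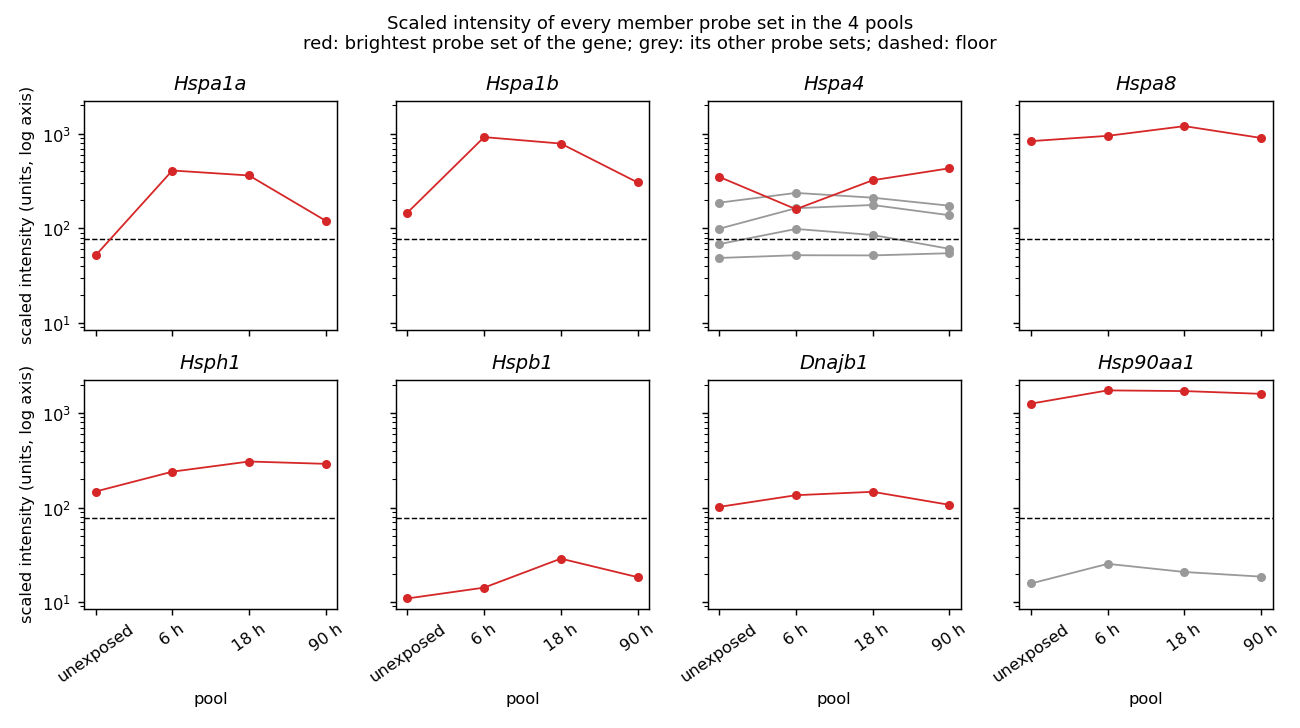
Scaled intensity (array units, log axis) of all 13 probe sets of the 8 genes in the 4 pools, with 1 point per array, the brightest probe set of a gene in red, others in grey and the floor of 77.7 units dashed. Hspa1a and Hspa1b stood highest at 6 h and remained above the unexposed pool at 90 h, while Hspb1 lay under the floor throughout.

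Of the 8 genes, the inducible Hsp70 genes were furthest from the unexposed pool at 6 and 18 h. Hspa1b read 147, 924, 789 and 306 units in the unexposed, 6, 18 and 90 h pools. Every exposed pool lay above the unexposed one, and the order was 6 h, 18 h, 90 h, unexposed. Relative to unexposed lungs Hspa1b was 6.30-fold higher at 6 h, 5.38-fold at 18 h and 2.09-fold at 90 h.

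Hspa1a, read by another probe set that could share signal with that of Hspa1b, followed the same order. It read 51.8 units in the unexposed pool, which is under the floor, and 410, 363 and 120 units at 6, 18 and 90 h. Its differences are therefore bounds of at least 5.27-fold, 4.67-fold and 1.55-fold higher.

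The 6 and 18 h pools were close for both genes, and the step from 18 to 90 h was larger. From 6 to 18 h Hspa1b was 1.17-fold and Hspa1a 1.13-fold lower, and from 18 to 90 h they were 2.58-fold and 3.02-fold lower. As a yardstick of measurement error, differences given by several probe sets of 1 gene scattered with an SD of 0.22 to 0.29 log2 units, depending on the comparison. The 6 to 18 h steps of -0.23 and -0.17 log2 units lie within that scatter. It leaves out differences between animals, pools and hybridisations.

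Among the genes compared at each time, Hspa1b ranked 7th of 6044 from the top at 6 h, 5th of 6040 at 18 h and 36th of 6061 at 90 h. Hspa1a, by its bounds, ranked 12th, 9th and 168th. From 18 to 90 h both lay near the other end, with 0.284% of 5976 genes below Hspa1a and 0.452% below Hspa1b. In whole lung, fewer cells of a type and less RNA per cell cannot be told apart.

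Some markers of other tissue and of cell types also differed between the pools. Of 11 heart and skeletal muscle markers compared at 6 h, 2 were at least 2-fold higher, beside 2.17% of all genes. Acta1, the skeletal actin, read 7.25, 611, 392 and 1.69 units in the 4 pools. Myl1, a fast muscle myosin light chain, read 65.4, 275, 56.9 and 38.8 units. The list's summed level was 5510, 5292, 4781 and 4073 units, and its other 9 members had log2 differences of -0.43 to 0.39 at 6 h. Of 6 lymphocyte markers compared 2 were at least 2-fold lower at 6 h, beside 1.51% of all genes. So were 1 of 8 neutrophil and 1 of 7 endothelial markers. The 2 lymphocyte markers were the B cell genes Cd79a (log2 difference -1.44) and Ighm (-1.21). Ighm has 16 probe sets, and the suffix of the brightest, used here, marks possible cross-hybridisation. The T cell genes compared, Cd3e (0.01) and Cd4 (0.20), were not lower, so these values do not describe lymphocytes in general. At 90 h all 6 macrophage markers compared were above the unexposed pool, 2 of them at least 2-fold, beside 0.726% of all genes. Summed lymphocyte markers were 2133, 1174, 1494 and 1581 units, neutrophil markers 1826, 1479, 1398 and 1838, macrophage markers 3947, 3166, 3139 and 4853, smooth muscle markers 3234, 2714, 3205 and 2352, and endothelial markers 6124, 5955, 5643 and 5666. A sum weights bright probe sets most and can hide opposite differences. Of 8 neutrophil markers compared at 90 h 3 were above the unexposed pool. S100a8 was 1.83-fold higher at 90 h and Ltf 1.29-fold lower. No marker of these lists was listed at 0, and Sftpd, Marco, Cd3g, Cd3d and Cd8a were under the floor in all pools. The part of these differences in the values of the heat shock genes was not tested.

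Hspa8, the constitutive Hsp70 that folds new proteins and uncoats clathrin vesicles, was well above the floor in every pool and stayed within 1.5-fold of the unexposed value. It read 837, 953, 1207 and 904 units in the unexposed, 6, 18 and 90 h pools. Its highest value was at 18 h, 1.44-fold above unexposed lungs, against 1.14-fold at 6 h and 1.08-fold at 90 h. The values at 6 and 90 h lay within 0.19 log2 units of the unexposed pool, less than the scatter between probe sets.

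Dnajb1, the J-domain partner of inducible Hsp70, likewise read highest at 18 h. Its step from 6 to 18 h, 0.12 log2 units, lay within the scatter between probe sets, 0.25 log2 units. Dnajb1 read 102, 135, 147 and 107 units, and its folds above unexposed lungs were 1.33, 1.44 and 1.05 at 6, 18 and 90 h. These intensities are close to the floor. With the floor raised to the 60th percentile the unexposed value lay under it, and the 18 h log2 difference of 0.53 could only be given as at least 0.09.

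Hsph1, an inducible Hsp110 that exchanges nucleotide on Hsp70, had a later course than the inducible Hsp70 genes. It read 148, 240, 307 and 290 units in the unexposed, 6, 18 and 90 h pools. It was 1.62-fold above unexposed lungs at 6 h, 2.08-fold at 18 h and 1.96-fold at 90 h. The 18 and 90 h pools differed by 1.06-fold, so at 90 h Hsph1 stood at 196% of its unexposed level, beside 209% for Hspa1b, which had come down from 630% at 6 h. Hsph1 ranked 50th of 6061 genes at 90 h, after 303rd of 6044 at 6 h and 81st of 6040 at 18 h.

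Hspa4, a constitutive Hsp110, gave conflicting readings. Its brightest probe set read 351, 160, 323 and 432 units in the unexposed, 6, 18 and 90 h pools, which is 2.20-fold lower at 6 h, then near the unexposed level at 18 h and 1.23-fold above it at 90 h. From 6 to 18 h it was 2.02-fold higher.

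The other Hspa4 probe sets did not share that dip. A probe set designed from another sequence record read 99.2, 164, 177 and 138 units, so that log2 differences from unexposed were 0.72, 0.83 and 0.47. A further one, whose suffix marks possible cross-hybridisation, gave 0.34, 0.18 and -0.11. A probe set close to the floor gave bounds of 0.34 and 0.13 at 6 and 18 h, and the last was under the floor on all arrays. At 6 h all 3 other probe sets above the floor were higher than unexposed while the brightest was lower, and with all 5 averaged the log2 difference was 0.055. No direction is given for Hspa4 at 6 h for that reason.

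**Figure D2:**
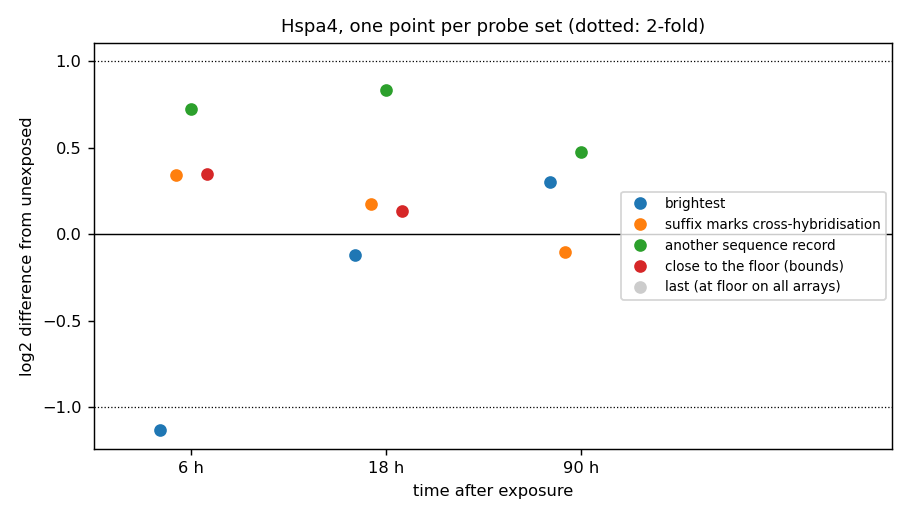
Log2 difference from unexposed lungs (vertical axis, log2 units) at 6, 18 and 90 h for each Hspa4 probe set, with 2-fold dotted. At 6 h the brightest probe set lay at -1.14 and the other 3 above the floor at 0.34 to 0.72.

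Hsp90aa1, the stress-inducible cytosolic Hsp90, stood moderately higher in each exposed pool. It read 1258, 1736, 1707 and 1596 units, and was 1.38-fold, 1.36-fold and 1.27-fold above unexposed lungs at 6, 18 and 90 h. Neighbouring exposed pools differed little, by 1.02-fold from 6 to 18 h and by 1.07-fold from 18 to 90 h. Its second probe set was under the floor throughout, at 15.8 to 25.4 units, and gives no fold.

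Hspb1, a small heat shock protein known for protecting the actin cytoskeleton, gave no usable value. Its probe set read 10.9, 14.2, 28.9 and 18.4 units in the unexposed, 6, 18 and 90 h pools, all under the floor. Nothing can be said of Hspb1 from these arrays, in either direction.

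Counted at 2-fold, members past the threshold were more often higher than lower. Hspa1a and Hspa1b could share signal, so the counts here and below may hold 1 signal as 2 members. At 6 h Hspa1a and Hspa1b were at least 2-fold higher, 2 of 7 members compared beside 2.17% of 6044 genes, and Hspa4 was lower by its brightest probe set alone, beside 1.51% of genes. At 18 h Hspa1a, Hspa1b and Hsph1 were higher, 3 of 7 beside 1.59% of 6040 genes, and no member was lower, beside 0.944%. At 90 h Hspa1b was higher, 1 of 7 beside 0.726% of 6061 genes, and no member was lower, beside 0.924%. Among all genes past 2-fold, 59.0%, 62.7% and 44% were higher at the 3 times, or 69.0%, 81.6% and 61.2% with deposited values left unscaled.

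At 1.5-fold the same members were higher at every time, namely Hspa1a, Hspa1b and Hsph1. That is 3 of 7 at 6, 18 and 90 h, beside 7.16%, 6.79% and 3.42% of all genes. Between exposed pools only Hspa4 by its brightest probe set was at least 2-fold higher at 18 h than at 6 h, beside 1.18% of 5995 genes, and no member was lower, beside 1.17%. From 18 to 90 h Hspa1a and Hspa1b were at least 2-fold lower, 2 of 7 beside 0.954% of 5976 genes, and no member was higher, beside 0.904%.

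The median log2 difference of the 7 compared members was 0.47 at 6 h, 0.53 at 18 h and 0.34 at 90 h. Over all genes compared it was -0.04, -0.01 and 0.03. Of the 7 members 6, 6 and 7 lay above 0, beside 45.4%, 48.2% and 53.8% of all genes. Hspa4 counts here by its brightest probe set, and another of its probe sets gave -0.11 at 90 h. Dnajb1 (0.07) and Hspa8 (0.11) at 90 h lay within the scatter between probe sets, 0.26 log2 units.

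**Figure D3:**
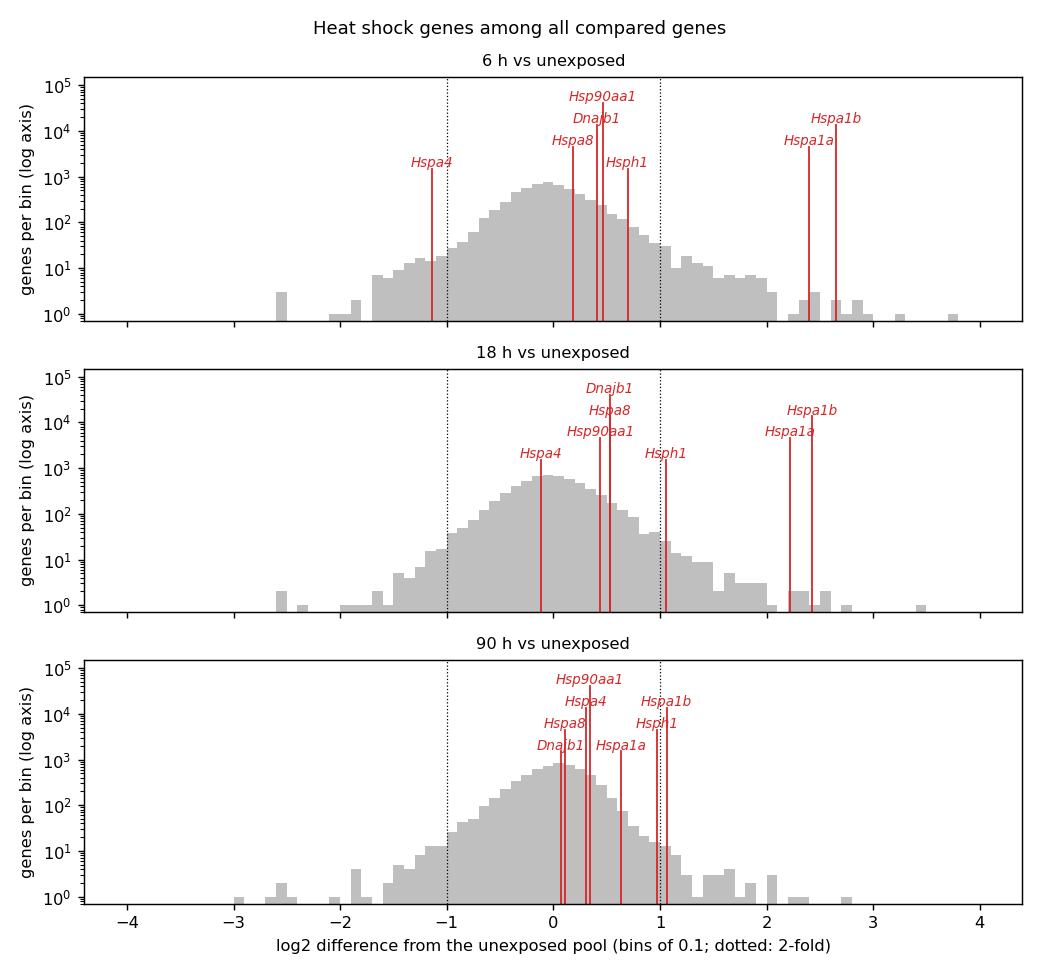
Number of genes (log axis) by log2 difference from the unexposed pool in bins of 0.1, for 6, 18 and 90 h, with the 7 members above the floor marked in red and 2-fold dotted. Hspa1a (a bound) and Hspa1b lay in the upper tail at 6 and 18 h, and Hsph1 and Hspa1b in the upper tail at 90 h.

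Genes with the time course nearest to that of a member were taken by the distance between their 3 log2 differences, over 4 arrays and 5083 genes above the floor on all of them. Hspa1a, under the floor in the unexposed pool, was left out by that filter. Among the genes searched, the nearest to Hspa1b were Lrg1, an acute phase glycoprotein (distance 1.14), Cdkn1a, the cell cycle inhibitor p21 (1.17), and Mt1, a metallothionein (1.21), followed by Angptl4 (1.42), by a probe set marked for possible cross-hybridisation, and Gclc (1.45). Lrg1 was 3.07-fold, 6.70-fold and 1.65-fold above unexposed lungs at the 3 times, and so highest at 18 h. The nearest to Hsph1 were Tor1aip2 (0.15), Hoxa11os (0.20), Nedd8 (0.24), Htr1d (0.28) and Akt1s1 (0.28). The probe sets of Hoxa11os and Nedd8 carry the same mark. Hspb1, under the floor throughout, has no neighbours by this measure, and the search was not made for the other members.

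The rest of the chaperone system was described by 8 lists with 87 genes, 62 of them on the array, none from the 8 members. Past 2-fold at 6 h were 3 higher and 1 lower gene of 54 that could be compared, beside 2.17% and 1.51% of all genes. At 18 h there was 1 of each among 53, beside 1.59% and 0.944%, so the higher count (1.89%) was near the share of all genes. At 90 h none was higher, beside 0.726%, and 2 of 53 were lower, Dnajc1 and Dnajb3, beside 0.924%. Dnajb3, named after its values were seen, was at least 2.07-fold lower by a marked probe set. Their medians were 0.10, 0.12 and 0.12 log2 units. At 1.5-fold 8, 12 and 1 of them were higher, or 14.8%, 22.6% and 1.89%, beside the shares of all genes given above.

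Among other Hsp70 and Hsp110 genes none of 3 compared passed 2-fold. Hspa9, the mitochondrial Hsp70, read 186, 320, 272 and 186 units, 1.72-fold above unexposed lungs at 6 h and back at that level at 90 h. Hspa1l, the neighbour of Hspa1a that is expressed in testis, read 183, 165, 147 and 173 units and was not higher in any exposed pool. Hspa4l read 119, 128, 128 and 170 units.

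Among small heat shock proteins Hspb8 stood apart. Hspb8, which works with the Hsp70 co-chaperone Bag3 in removing damaged proteins by autophagy, read 144, 545, 341 and 179 units, and was 3.78-fold, 2.37-fold and 1.24-fold above unexposed lungs. Its second probe set was under the floor throughout. The lens crystallin gene Cryaa, and Cryab and Hspb2, lay within 0.32 log2 units of unexposed at 6 and 18 h, those of Cryab and Hspb2 by marked probe sets. Their unmarked probe sets were under the floor at these times.

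At 6 h 16 other J-domain genes were compared. None was at least 2-fold higher, beside 2.17% of all genes, and 1 was lower, beside 1.51%. Dnaja1, a cytosolic partner of Hsp70, read 255, 498, 478 and 380 units, 1.95-fold, 1.87-fold and 1.49-fold above unexposed lungs. Dnajb2 was highest at 18 h, 1.59-fold above. Dnajc5, a synaptic vesicle protein, was at least 1.53-fold higher at 6 h. Dnajc1, a membrane J-domain protein of the endoplasmic reticulum, read 450, 109, 142 and 129 units and was 4.11-fold, 3.17-fold and 3.50-fold lower. Its second probe set was under the floor on all arrays.

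Co-chaperones of Hsp70 and Hsp90 were spread around the unexposed level at 6 h and mostly above it at 18 h. At 6 h 8 of 16 were above 0 and at 18 h 14 of 17, beside 45.4% and 48.2% of all genes. Medians were -0.02 and 0.22, beside -0.04 and -0.01 over all genes. At 18 h Bag1, Bag2, Bag6, St13, Cdc37 and Ppid (a bound) were above 0 by less than the scatter between probe sets, 0.27 log2 units. Fkbp5, which binds Hsp90 in steroid receptor complexes and is induced by glucocorticoids, read 108, 726, 149 and 73.9 units, the last under the floor, and was the only list member past 2-fold, at 6 h (6.73-fold). Bag3 read 197, 336, 288 and 195 units, 1.70-fold above unexposed lungs at 6 h. A second Bag3 probe set, marked for possible cross-hybridisation, stood 0.71 log2 units above unexposed at 6 h and 0.35 at 18 h. Stip1, which joins Hsp70 to Hsp90, read 215, 253, 393 and 331 units, 1.83-fold above at 18 h. Cacybp and the phosphatase gene Ppp5c were 1.81-fold and 1.67-fold above at 18 h. Fkbp4 was 1.45-fold lower at 6 h by a marked probe set, while the second Fkbp4 probe set, also marked, was higher by 0.19 on the log2 scale, so the direction for Fkbp4 at 6 h is not settled.

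Of the heat shock factor transcripts only Hsf4 could be compared, and it stayed within 1.5-fold of unexposed lungs. Hsf1 was not analysed here, Hsf2 was under the floor in all pools, and Hsf4 read 141, 109, 125 and 124 units. Hsbp1, which binds heat shock factors, read 193, 164, 196 and 217 units. No Hsp90 gene other than Hsp90aa1 was compared in the cytosolic and mitochondrial Hsp90 list.

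**Figure D4:**
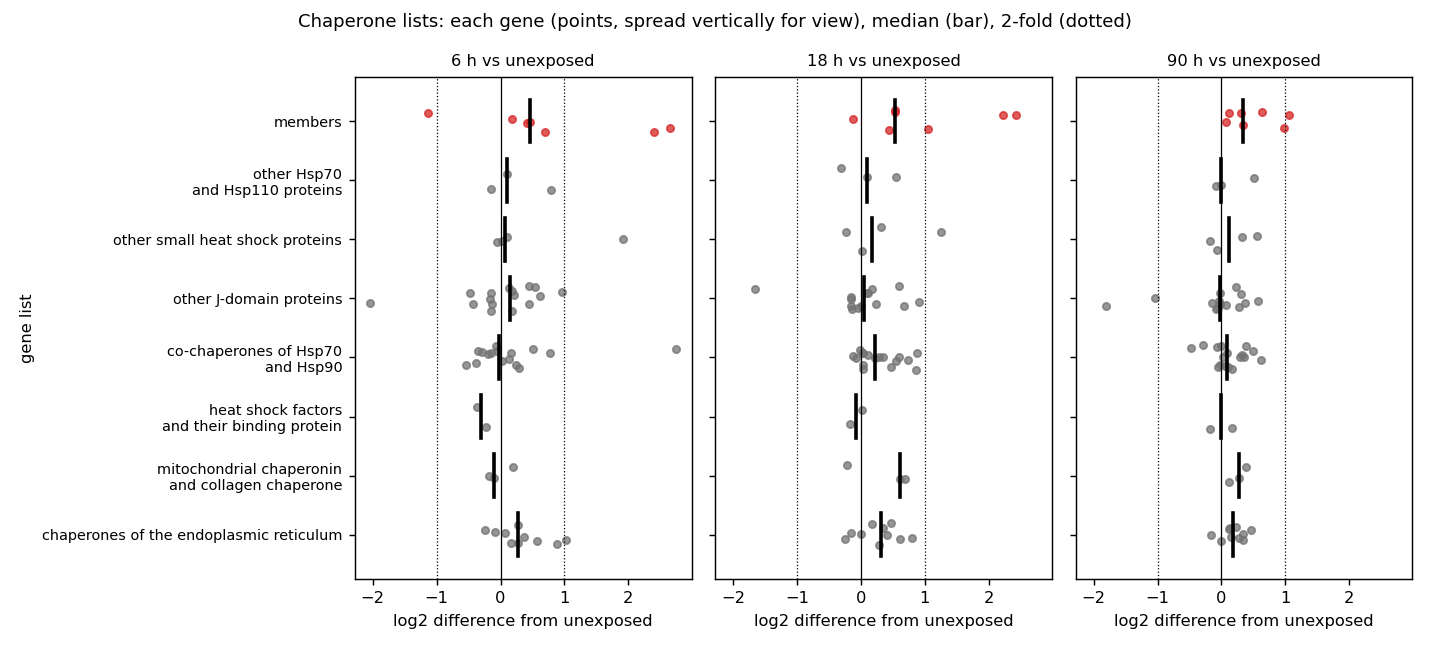
Log2 difference from unexposed lungs (horizontal axis) of each compared gene of the 8 members' list (red) and of the further chaperone lists (grey), with each list's median as a bar and 2-fold dotted. Outside the members, Hspb8 at 6 and 18 h, and Fkbp5 and Dnajb9 at 6 h, lay past 2-fold on the higher side.

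The arrays carried the markers of lung. Sftpc, Scgb1a1, Ager and Sftpb, made by alveolar and club cells, were far above the floor in every pool, at 3554 to 10632 units, while Sftpd was under the floor. Deposited medians ran from 97.7 to 108 units, and the 3' to 5' signal ratios of Gapdh and beta-actin, signs of RNA integrity, from 1.12 to 1.22 and from 1.30 to 1.55.

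The differences of the inducible Hsp70 genes kept their sign under every scaling and floor rule that gave a value. For Hspa1a at 90 h the highest floor gave none, and the range was 0.62 to 1.22. Over 8 alternatives the log2 difference of Hspa1b lay between 2.42 and 2.77 at 6 h and between 2.20 and 2.57 at 18 h, and at 90 h between 0.92 and 1.20, on either side of 2-fold. That of Hspa1a lay between 1.57 and 2.98 at 6 h, since the floor sets its bound. Hsph1 ranged from 0.60 to 0.81 at 6 h. It ranged from 0.91 to 1.20 at 18 h and from 0.84 to 1.11 at 90 h, in both cases on either side of 2-fold. Not all alternatives could move these values. Hspa1a, Hspa1b and Hsph1 each had 1 probe set, unmarked, so the probe set rules returned the reported value. Hspa1b and Hsph1 were above every floor tried on all arrays, so the other floors returned it too.

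**Figure D5:**
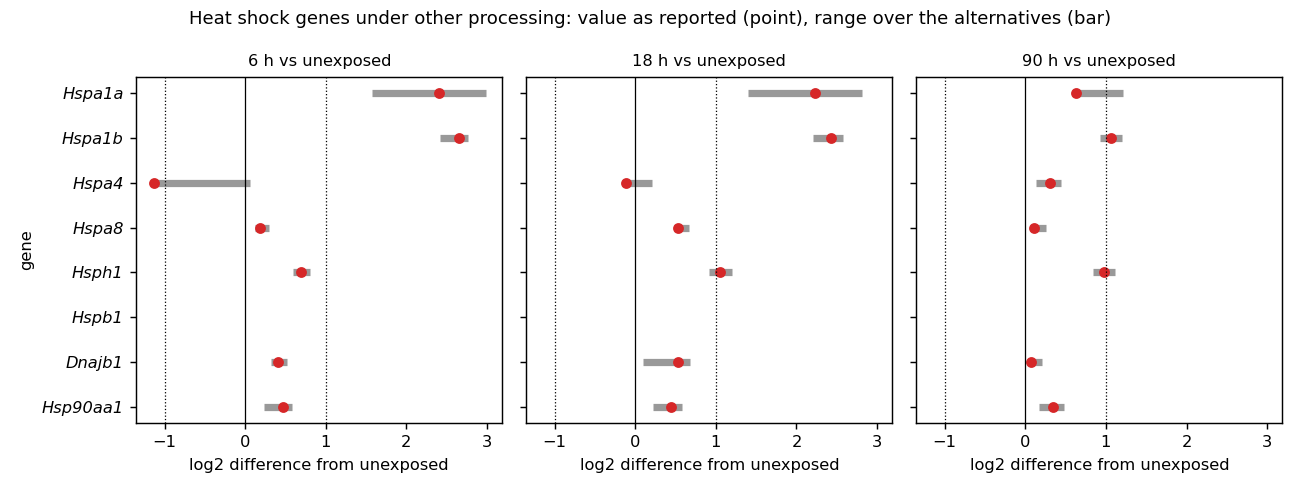
Log2 difference from unexposed lungs (horizontal axis) of each member as reported (point) and its range over other scalings, floors and probe set rules (bar), with 2-fold dotted. Hspb1 has no value, and of the others only Hspa4, at 6 and 18 h, has a bar that crosses 0.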

How the data were processed

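The authors deposited a table of linear intensities, 1 for each probe set on each array. Which software, background correction or scaling made them is not given in the sources used here. Deposited values include exact zeros and none below 0. Genes were named from the platform annotation, with gene identifiers checked against RefSeq, which changed 0 symbols. Of 12488 probe sets 66 were controls, 10833 had 1 symbol, 396 several and 1193 were not listed, leaving 8251 genes.

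Each array was scaled to the mean of the arrays' means after trimming 2% at each end. All scaled intensities below their pooled 40th percentile were raised to that floor, and log2 differences were taken over genes above the floor on at least 1 array. Thresholds were 2-fold and 1.5-fold. The scatter between probe sets of a gene is a robust SD of their deviations, from the 16th and 84th percentiles, over 578 to 607 unmarked probe sets above the floor. Suffixes f, g, i, r and s were taken as marks of possible cross-hybridisation. The work used Python 3.11.15, numpy 2.4.6 and pandas 2.3.3, and was tested on simulated data. Named genes are all members, up to 3 genes with the largest differences per list at 6 and 18 h, and the 5 nearest time courses. Members, lists and rules were chosen with earlier results of these data known. Alternatives were no, median and quantile scaling, floors at the 25th and 60th percentile, a pseudocount of 32, averaged probe sets, unmarked probe sets only, and thresholds of 1.5-fold and 3-fold. The number of arrays, 1 per group, limits the precision of every value.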

Additional observations from a re-analysis of the deposited data

How the results depend on the processing

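With 1 array per group no p-value exists, and a difference near the scatter between probe sets is not resolved. Of 140 recomputed member counts and medians 127 were unchanged or within the tolerance, and of 277 recomputed member differences 260. These tallies include alternatives that could not move a value, such as the probe set rules for a gene with 1 unmarked probe set. The tolerance also admitted a changed count. Members at least 2-fold higher at 18 h numbered 2 with a pseudocount, against 3 as reported. The third, Hsph1, was 2.08-fold higher and so does not reach 3-fold either. Members at least 2-fold higher at 90 h numbered 2 with unscaled values and 2 at the 25th percentile floor, 0 with a pseudocount, 3 at 1.5-fold and 0 at 3-fold, against 1 as reported. The lower member at 6 h and the higher one from 6 to 18 h, both Hspa4, became 0 with a pseudocount, with averaged probe sets and at 3-fold, and averaging reversed the 6 h log2 difference of Hspa4 from -1.14 to 0.055. From 18 to 90 h 1 member was lower at 3-fold, against 2, and the members' median of -0.42 became -0.10 when the floor was raised to the 60th percentile. Averaging lowers a difference by construction where a probe set is at the floor. Unscaled values moved the median of all genes from -0.04, -0.01 and 0.03 to 0.07, 0.12 and 0.16 at 6, 18 and 90 h, and turned the sign of Hspa4 at 18 h. No paired analysis was possible because each group has 1 array.

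Counts over all genes that moved by over 1.5 times were these. With the floor at the 60th percentile genes lower at 6 h went from 91 to 47, at 18 h from 57 to 29 and at 90 h from 56 to 25, genes higher at 90 h from 44 to 22, and genes higher from 6 to 18 h from 71 to 38. From 18 to 90 h 54 higher and 57 lower became 34 and 37. With it at the 25th percentile genes higher at 18 h went from 96 to 153 and at 90 h from 44 to 91, genes lower at 90 h from 56 to 87, and genes lower from 18 to 90 h from 57 to 90. Genes lower at 18 h numbered 32 unscaled, and genes lower at 90 h 36 with averaged and 35 with unmarked probe sets. At 1.5-fold, higher and lower genes numbered 433 and 366 at 6 h, 410 and 369 at 18 h, 207 and 296 at 90 h, 320 and 285 from 6 to 18 h, and 220 and 238 from 18 to 90 h. A 3-fold threshold left 43 higher genes with 14 lower ones for the 6 h pool, 24 with 8 for the 18 h pool, 13 with 11 for the 90 h pool, and 13 with 18 in each comparison between exposed pools.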

Other observations

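In the endoplasmic reticulum Hspa5, the Hsp70 of that compartment (BiP), read 914, 1683, 1581 and 1262 units in the unexposed, 6, 18 and 90 h pools, 1.84-fold, 1.73-fold and 1.38-fold above unexposed lungs. Dnajb9, a J-domain partner of Hspa5, read 201, 410, 308 and 200 units, 2.04-fold above at 6 h, and a second Dnajb9 probe set was higher by at least 1.19 on the log2 scale. Dnajc3 stood 0.57 log2 units above unexposed at 6 h, and its marked probe sets 0.28 and 0.45, with another under the floor. Pdia6, a disulfide isomerase, stood 0.16 above at 6 h and 0.47 at 18 h by its brightest probe set, which is marked, and 0.59 and 0.61 by an unmarked one. The dimmest Pdia6 probe set gave at least 0.19 and 0.41. Of 10 genes of that list compared, 8 were above 0 at each of the 3 times, beside 45.4%, 48.2% and 53.8% of all genes. Medians were 0.27, 0.32 and 0.19, beside -0.04, -0.01 and 0.03 over all genes. Several of these differences lay within the scatter between probe sets, such as Calr at 6 and 18 h (0.07 and 0.004). Canx at 18 and 90 h (0.17 and 0.14) did so too.

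Hspd1, the large ring subunit of the mitochondrial chaperonin, read 444, 507, 714 and 538 units and Hspe1, its lid, 342, 316, 520 and 448, which is 1.61-fold and 1.52-fold above unexposed lungs at 18 h. A dimmer probe set of Hspd1, marked for possible cross-hybridisation, gave a log2 difference of -0.28 at 18 h. Serpinh1, the collagen chaperone of the endoplasmic reticulum, read 1239, 1087, 1067 and 1343 units.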
